A study of Mus musculus with 9 samples.

Results

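Toll-like receptors sense microbial components, and the 10 mouse Toll-like receptor genes Tlr1 to Tlr9 and Tlr13 were examined here out of 55401 genes in the deposited table. They were taken by symbol, with no use of their measured values, and each symbol had 1 row. RNA was sequenced from RAW264.7 cells, a wild-type mouse macrophage line derived from an Abelson murine leukemia virus-induced tumor of a male. The line carries the traits of a tumor and is a single culture line, not a population of primary macrophages. One group received DMSO, the solvent. The LPS group received DMSO and LPS, a wall component of Gram-negative bacteria that triggers inflammatory activation. The LPS + Ska group received LPS and skatole, an indole compound. Treatment lasted 24 h by the labels, each group had 3 samples numbered 5, 6 and 7, and the methods of the study give a longer time for the RNA-seq. Nothing states that the samples of a group were separate cultures, so p-values measure only the spread between samples, which may be technical.

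Toll-like receptors pair a ligand-binding ectodomain with an intracellular TIR domain that recruits adaptor proteins. Receptors of the cell surface mainly sense lipids and proteins of microbes: Tlr2 binds lipoproteins together with Tlr1 or Tlr6, Tlr4 with its partner MD-2 binds LPS, and Tlr5 binds flagellin. Receptors of the endosome sense nucleic acids: Tlr3 binds double-stranded RNA, Tlr7 and Tlr8 sense RNA and its breakdown products, Tlr9 senses unmethylated CpG DNA, and Tlr13 senses a stretch of bacterial ribosomal RNA. Most signal through Myd88, whereas Tlr3 uses Ticam1 (TRIF) and Tlr4 uses both. All of them can activate NF-κB, and macrophages are known for expressing many members of the family at once. On this basis Tlr1, Tlr2, Tlr4, Tlr5 and Tlr6 were grouped as 5 surface receptors and Tlr3, Tlr7, Tlr8, Tlr9 and Tlr13 as 5 endosomal receptors.

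The genes lie on 7 chromosomes of the mm10 build (GRCm38, GENCODE annotation). Tlr1 (chr5:64924679-64933563, minus strand) and Tlr6 (chr5:64952031-64960097, minus strand) are neighbours with a gap of 18.5 kb. Tlr8 (chrX:167242696-167264329) and Tlr7 (chrX:167304929-167330558) are likewise neighbours on the minus strand, with a gap of 40.6 kb. Tlr13 (chrX:106143204-106160493, plus strand) is on the same chromosome, 61082.2 kb from Tlr8. The others lie apart, with Tlr2 at chr3:83836272-83841767 (minus strand), Tlr3 at chr8:45395665-45411080 (minus strand), Tlr4 at chr4:66827584-66930284 (plus strand), Tlr5 at chr1:182954788-182976044 (plus strand) and Tlr9 at chr9:106222598-106226883 (plus strand). Tlr1 and Tlr6 are close relatives, as are Tlr7 and Tlr8, and how reads that match both copies were divided is not given in the sources used here, so the split within these pairs is uncertain.

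RefSeq promoter windows on GRCm38.p6, which run from 250 bases before to 50 after a gene start, were held for 8 of the 10 genes. The sequence upstream is shown for the 4 genes that were called changed in at least 1 comparison and had a motif match upstream of the exons, 5′ to 3′ on the gene's strand and without annotated exon bases. Capitals mark the matches to the searched motifs.
Tlr1 (chr5:64933564-64933808, minus strand): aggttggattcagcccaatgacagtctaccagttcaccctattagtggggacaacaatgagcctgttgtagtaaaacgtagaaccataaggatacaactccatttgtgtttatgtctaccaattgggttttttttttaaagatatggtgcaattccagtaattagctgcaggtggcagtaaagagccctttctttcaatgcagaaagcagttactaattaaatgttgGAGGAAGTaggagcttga
Tlr2 (chr3:83841768-83841858, minus strand): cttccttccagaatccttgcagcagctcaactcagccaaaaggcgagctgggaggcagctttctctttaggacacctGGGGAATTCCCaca
Tlr9 (chr9:106222348-106222597, plus strand): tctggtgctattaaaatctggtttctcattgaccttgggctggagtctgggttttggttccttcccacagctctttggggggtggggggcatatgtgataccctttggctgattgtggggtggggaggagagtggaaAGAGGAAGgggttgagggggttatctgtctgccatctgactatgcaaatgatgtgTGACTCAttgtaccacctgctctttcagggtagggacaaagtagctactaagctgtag
Tlr13 (chrX:106143025-106143203, plus strand): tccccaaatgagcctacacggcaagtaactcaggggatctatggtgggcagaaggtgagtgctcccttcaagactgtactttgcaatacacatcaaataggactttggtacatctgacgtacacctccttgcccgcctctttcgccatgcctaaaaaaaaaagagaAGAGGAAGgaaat
The motifs, searched on both strands, were those of NF-κB (the factor released by Toll-like receptor signaling), ISRE (the interferon response element, searched as GAAA, then any 2 bases, then GAAA again), AP-1 (TGANTCA) and PU.1 (GAGGAAGT or AGAGGAAG), the last bound by the factor encoded by Spi1 that defines myeloid cells. The capitals in Tlr2 are overlapping NF-κB matches, those in Tlr1 and Tlr13 are PU.1 matches, and those in Tlr9 are a PU.1 match followed by an AP-1 match. PU.1 letters were found for 3 of the 8 genes (Tlr1, Tlr9 and Tlr13) and in 6.68% of all 32851 windows of the same length. NF-κB letters were found for 2 genes (Tlr2 and Tlr3) and in 4.51% of windows, AP-1 letters for 1 gene (Tlr9) and in 7.81%, and ISRE letters for 1 gene (Tlr6) and in 3.44%. A gene was counted if any of its windows had a match (10 windows for the 8 genes), whereas the percentages count single windows. These are matches of letters, and no binding was measured at them here.

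Levels are given as TPM, the number of transcripts of a gene in a fixed total of transcripts, which corrects for transcript length and lets genes be set side by side. Sequencing depth cannot be read from TPM, so no counting error is given. In LPS and in LPS + Ska the deposited columns were tied, in that replicate 5 was the midpoint of replicates 6 and 7 (within 1e-05 TPM) in all 17950 and all 17658 genes in which both were above 0. In DMSO no column was the midpoint of the others in more than 0.0600% of genes. How the columns were made is not stated. Both groups thus carry no more than 2 independent values for any gene. These were recovered by moving from replicate 5 to the point midway to replicate 6 and to that midway to replicate 7, and their means ± SD are given over n = 2, against n = 3 in DMSO. The midway step is an inference. With it no recovered value lay below 0 by more than 1e-05 TPM, and 3190 genes in LPS and 3113 in LPS + Ska had 1 recovered value at 0. Were replicates 6 and 7 themselves the 2 values, these SDs would be larger, and no fit was made that way. All 7 macrophage markers had a mean of at least 19.7 TPM in every group, while no marker of B cells, T cells, fibroblasts, epithelium or endothelium reached a mean of 1 TPM in any group. The macrophage markers summed to 11033 to 11973 TPM in DMSO, 5788 to 6113 TPM in LPS and 11383 to 11594 TPM in LPS + Ska, most of it from Lyz2, and the part of this difference in the results was not tested. Lyz2 had means of 9151 TPM in DMSO, 4423 TPM in LPS and 10061 TPM in LPS + Ska. By fitted change, 2 of the 7 markers were higher and 5 lower in LPS + Ska than in LPS, so the sum does not describe the markers one by one. All 5 LPS response genes looked at (Il6, Il1b, Tnf, Nos2 and Ptgs2) were called higher in LPS than in DMSO.

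Of the receptor genes, 8 were above 1 TPM in every sample, Tlr8 reached at most 0.545 TPM, and Tlr5 was listed at 0 in all 9 samples. The remaining mouse family members, Tlr11 and Tlr12, were also listed at 0 in all 9. In DMSO the order of the mean levels was Tlr2, Tlr7, Tlr13, Tlr4, Tlr1, Tlr6, Tlr9, Tlr3 and Tlr8, from 256.7 TPM down to 0.468 TPM. Each gene in this order lay above the next without overlap of samples, other than Tlr6 and Tlr9. In LPS, Tlr13 moved from the third to the fifth place and Tlr1 from the fifth to the third, and Tlr6 and Tlr9 again overlapped in the deposited columns, though not in the recovered values (6.82 and 7.40 TPM for Tlr6, 6.20 and 5.47 TPM for Tlr9). In LPS + Ska the first places were again held by Tlr2 and Tlr7, Tlr4 and Tlr1 overlapped in the next places, and Tlr6 and Tlr9 no longer overlapped.

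**Figure D1:**
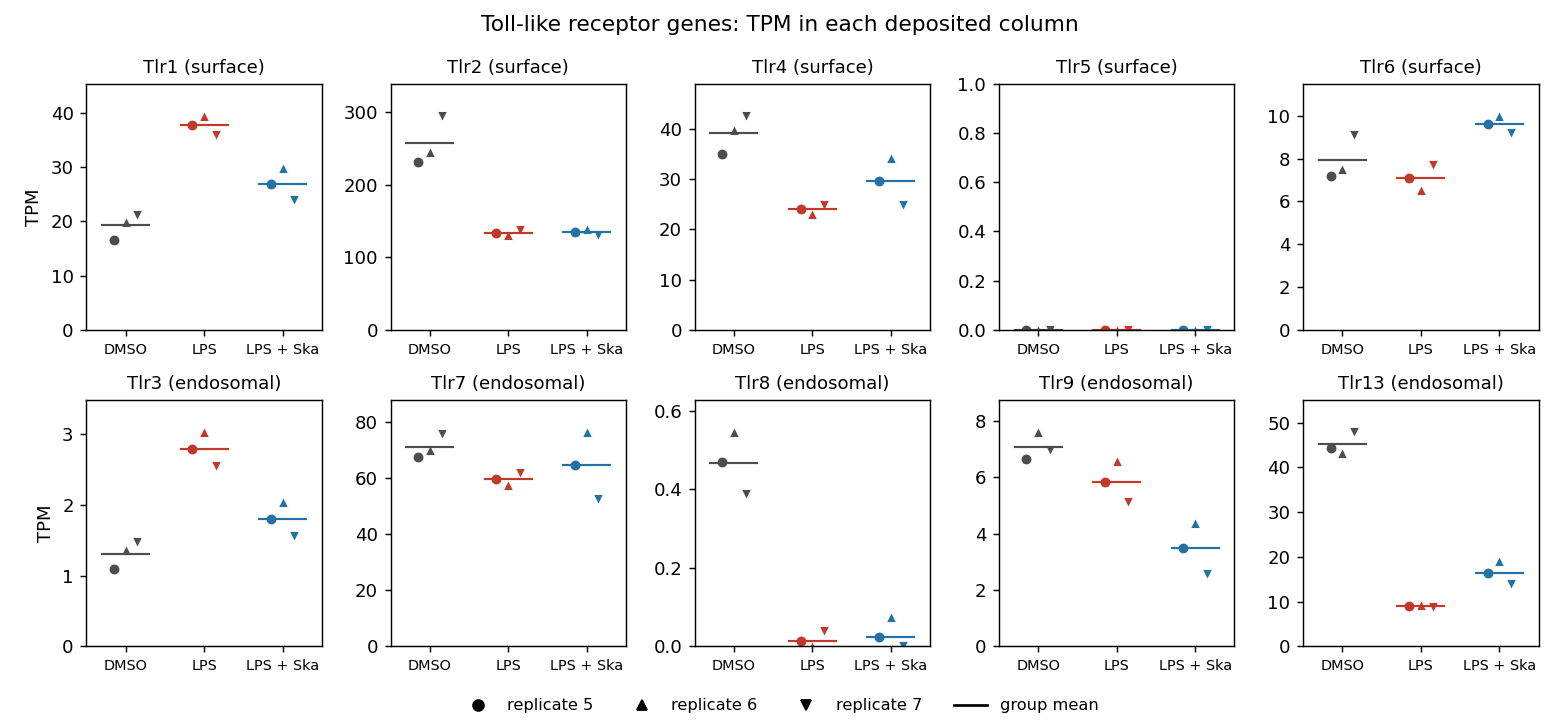
TPM of each Toll-like receptor gene (y axis, own scale for each gene, starting at 0) in the 9 deposited columns, by group (x axis), with surface receptors in the upper row and endosomal receptors in the lower row. Marker shapes stand for the replicate numbers 5, 6 and 7, and the horizontal line is the group mean. Tlr13 was at 43.3 to 47.8 TPM in DMSO, 8.88 to 9.29 TPM in LPS and 13.9 to 19.0 TPM in LPS + Ska, with no overlap of the groups.

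Changes were tested with limma on log2(TPM + 1) over the 12812 genes with a mean of at least 1 TPM, and adjusted p is the Benjamini-Hochberg adjusted p over these genes. A call needed an adjusted p below 0.05 together with a fold change beyond 1.5 or 0.67, which is 0.585 and -0.578 on the log2 scale. The added 1 TPM makes the fold changes of low genes, such as Tlr3, smaller than their ratios of TPM. Tlr5 and Tlr8 did not pass the filter on low values, so 8 of the 10 receptor genes were tested.

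The first comparison, LPS with DMSO, asks how the inflammatory stimulus changed the receptor genes. Tlr1 and Tlr3 rose, and Tlr2, Tlr4 and Tlr13 fell. Thus 2 of 8 tested receptor genes were called higher, beside 12.8% of all genes tested, and 3 were called lower, beside 19.8% of all genes tested. Samples of the groups did not overlap for 7 of the 8 tested receptor genes, beside 69.0% of all genes tested. TPM values sum to a fixed total, and with median-ratio scaling in place of the fixed total the share of called genes that were higher went from 39.3% to 49.3%. The 5 calls in receptor genes were made under that scaling too, that of Tlr4 at a log2 fold change of -0.588, close to the limit of -0.578.

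Tlr2, the shared partner of the lipoprotein receptors, had 230, 245 and 295 TPM in the DMSO samples and 134, 131 and 137 TPM in the LPS samples. Every LPS sample lay below every DMSO sample. This was a log2 fold change of -0.93 (SE 0.0985, 95% confidence interval -1.15 to -0.70, adjusted p = 1.23e-04). In RNA from whole cultures, fewer cells that express a gene and less RNA per cell cannot be told apart, here and below.

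Tlr1, which pairs with Tlr2 on triacylated lipoproteins, moved the other way, from 16.6, 19.9 and 21.2 TPM in DMSO to 37.7, 39.4 and 36.0 TPM in LPS. The samples of the groups were far apart, with means of 19.3 ± 2.35 TPM (SD, n = 3) and 37.7 ± 1.23 TPM (SD, n = 2). The log2 fold change was 0.94 (SE 0.113, adjusted p = 2.24e-04). Its neighbour Tlr6, which pairs with Tlr2 on diacylated lipoproteins, was at 7.20, 7.53 and 9.09 TPM in DMSO and 7.11, 6.52 and 7.70 TPM in LPS. Here the groups overlapped, and the log2 fold change of -0.14 (95% confidence interval -0.43 to 0.16) was not called (adjusted p = 0.395).

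Tlr4, the receptor of LPS itself, was at 35.0, 39.7 and 42.6 TPM in DMSO and at 24.0, 23.1 and 24.8 TPM in LPS. All LPS samples were lower, and the log2 fold change was -0.68 (SE 0.107, 95% confidence interval -0.93 to -0.43, adjusted p = 9.11e-04).

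Among the endosomal receptors that were tested, Tlr13 fell most. It had 44.3, 43.3 and 47.8 TPM in DMSO and 9.09, 9.29 and 8.88 TPM in LPS, so that the mean in LPS was 0.201 times the mean in DMSO. Its log2 fold change was -2.19 (SE 0.0969, 95% confidence interval -2.41 to -1.97, adjusted p = 1.80e-06), the largest in either direction among the 8 tested receptor genes.

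Tlr3, the receptor that signals through Ticam1, rose from 1.09, 1.36 and 1.48 TPM to 2.79, 3.03 and 2.55 TPM. No LPS sample overlapped the DMSO samples, and the mean was 2.13 times that of DMSO. Its log2 fold change was 0.72 (SE 0.174, adjusted p = 0.00798), and the call was lost when either of the recovered LPS values was left out (adjusted p = 0.0810 and 0.0528, and 0.00149 to 0.0810 over all alternatives).

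Tlr7 was at 67.4, 69.9 and 75.8 TPM in DMSO and 59.6, 57.4 and 61.8 TPM in LPS. The LPS samples lay lower by a small step that stayed inside the fold change limits (log2 fold change -0.25, adjusted p = 0.0475). Its adjusted p by limma was above 0.05 under several alternatives, among them no filter (0.115) and median-ratio scaling (0.124). Tlr9 was at 6.64, 7.60 and 6.97 TPM in DMSO and 5.84, 6.57 and 5.11 TPM in LPS, also lower without overlap, but its log2 fold change of -0.24 (95% confidence interval -0.57 to 0.09) did not pass the test (adjusted p = 0.189). Tlr8, the neighbour of Tlr7, was at 0.471, 0.545 and 0.388 TPM in DMSO and at 0.0128, 0 and 0.0384 TPM in LPS. Its levels were low throughout, and the mean in LPS was 0.0274 times the mean in DMSO. Without the filter on low values its log2 fold change by limma was -0.53 (adjusted p = 0.00197). With 1 TPM added, a gene this low in DMSO cannot reach the limit of -0.578 even at 0 TPM, so the limit decides nothing here.

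**Figure D2:**
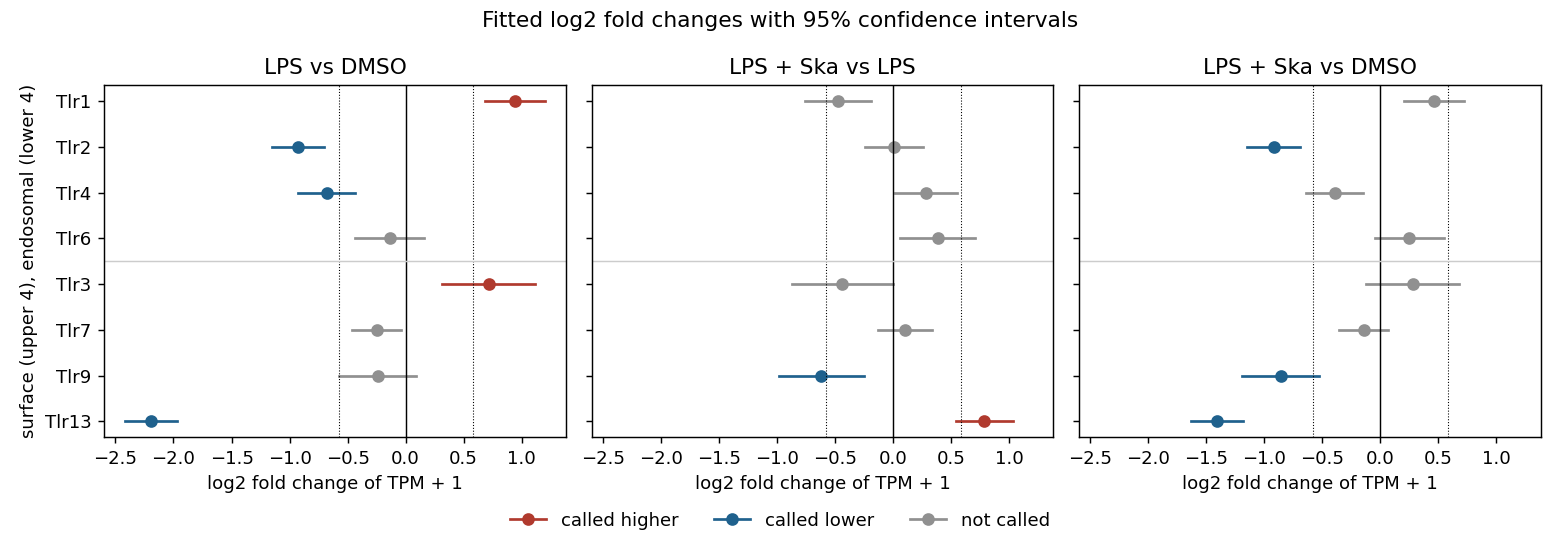
Log2 fold changes of TPM + 1 (x axis) with 95% confidence intervals for the 8 tested receptor genes (y axis, surface receptors above the grey line and endosomal receptors below it) in the 3 comparisons. Red points were called higher, blue points called lower and grey points not called, and dotted lines mark the fold change limits. Tlr13 was called in every comparison, at -2.19, 0.79 and -1.40.

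The second comparison, LPS + Ska with LPS, asks what skatole changed in stimulated cells. Tlr13 rose and Tlr9 fell, and no surface receptor gene was called. One of 8 tested genes was thus called higher, beside 2.83% of all genes tested, and 1 was called lower, beside 5.01% of all genes tested. Samples of the groups did not overlap for 6 of the 8 tested genes, beside 51.2% of all genes tested. By limma at an unadjusted p below 0.05, 3 of the 8 tested receptor genes were higher and 2 were lower in this comparison. Over all genes tested, 10.7% were higher and 23.3% lower by the same measure. With median-ratio scaling the share of called genes that were higher went from 36.1% to 55.2%.

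Tlr13 had 9.09, 9.29 and 8.88 TPM in LPS and 16.5, 19.0 and 13.9 TPM in LPS + Ska, with means of 9.09 ± 0.145 and 16.5 ± 1.83 TPM (SD, n = 2 each). Every sample with skatole was above every sample with LPS alone and below every DMSO sample. This was a log2 fold change of 0.79 (SE 0.106, 95% confidence interval 0.54 to 1.03, adjusted p = 0.00330). The call was made under all 15 alternatives, at log2 fold changes of 0.68 to 0.89 and adjusted p of 0.00102 to 0.0418.

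Tlr9 went from 5.84, 6.57 and 5.11 TPM in LPS to 3.48, 4.40 and 2.56 TPM in LPS + Ska. The groups did not overlap, and the mean with skatole was 0.596 times that with LPS alone. The log2 fold change was -0.62 (SE 0.159, 95% confidence interval -0.98 to -0.25, adjusted p = 0.0324), close to the fold change limit of -0.578. The call was lost under 5 of 15 alternatives: without a filter (adjusted p = 0.0650), with median-ratio scaling (log2 fold change -0.53, inside the limit) and without LPS recovered value 1 or 2 or LPS + Ska recovered value 2 (adjusted p = 0.231, 0.138 and 0.178). Over all alternatives its adjusted p ranged from 0.0130 to 0.231.

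Tlr7 was at 59.6, 57.4 and 61.8 TPM in LPS and at 64.5, 76.3 and 52.7 TPM in LPS + Ska. The LPS + Ska samples spread widely and overlapped the LPS samples, and the log2 fold change was 0.11 (95% confidence interval -0.13 to 0.34, adjusted p = 0.499). Tlr3 was at 2.79, 3.03 and 2.55 TPM in LPS and at 1.80, 2.04 and 1.56 TPM in LPS + Ska. These samples did not overlap, but with a log2 fold change of -0.44 (95% confidence interval -0.87 to 0.00078) the gene did not pass the test (adjusted p = 0.148). Tlr8 stayed near 0, at 0.0128, 0 and 0.0384 TPM in LPS and at 0.0251, 0.0754 and 0 TPM in LPS + Ska.

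Among the surface receptors, Tlr2 overlapped between the groups. It had 134, 131 and 137 TPM in LPS and 135, 139 and 130 TPM in LPS + Ska. The log2 fold change was 0.0072, and its 95% confidence interval of -0.24 to 0.26 lay inside the fold change limits. Tlr1 was at 37.7, 39.4 and 36.0 TPM in LPS and at 26.9, 29.8 and 23.9 TPM in LPS + Ska. The samples with skatole were all lower and still above DMSO, and the log2 fold change of -0.48 (95% confidence interval -0.76 to -0.19, adjusted p = 0.0335) stayed inside the fold change limits. Its adjusted p by limma was above 0.05 without a filter (0.0801), with median-ratio scaling (0.0550) and without the intensity trend (0.0554). With a recovered value left out, its log2 fold change was -0.55 to -0.40. Tlr6 was at 7.11, 6.52 and 7.70 TPM in LPS and at 9.60, 10.0 and 9.20 TPM in LPS + Ska. These samples were higher without overlap, but the log2 fold change of 0.39 (95% confidence interval 0.062 to 0.71) did not pass the test (adjusted p = 0.0942). Tlr4 was at 24.0, 23.1 and 24.8 TPM in LPS and at 29.5, 34.2 and 24.8 TPM in LPS + Ska. The lowest sample with skatole, at 24.84 TPM, was just above the highest with LPS alone, at 24.81 TPM, and the log2 fold change of 0.29 (95% confidence interval 0.017 to 0.56) did not pass the test (adjusted p = 0.128).

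The third comparison sets LPS + Ska against DMSO, and shares its groups with the first and second. No receptor gene was called higher, beside 11.4% of all genes tested, and Tlr2, Tlr9 and Tlr13 were called lower (3 of 8), beside 25.0% of all genes tested. By limma at an unadjusted p below 0.05, 1 receptor gene was higher and 4 were lower, beside 23.3% and 41.3% of all genes tested. Samples of the groups did not overlap for 7 of the 8 tested receptor genes, beside 64.8% of all genes tested. Tlr2 had a log2 fold change of -0.92 (adjusted p = 1.03e-04), beside -0.93 for LPS with DMSO. Tlr13 was lower by a log2 fold change of -1.40 (SE 0.0969, adjusted p = 1.29e-05), beside -2.19 in LPS. Tlr9 had -0.86 (SE 0.145, adjusted p = 0.00115), beside -0.24 in LPS. Tlr9 was thus the receptor gene called lower in LPS + Ska against DMSO but not in LPS against DMSO, and the test of that difference is the comparison of LPS + Ska with LPS, given above with the alternatives under which its call was lost.

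Tlr1 and Tlr4 lay between the LPS level and the DMSO level. Tlr1 differed from DMSO by 0.46 (adjusted p = 0.00743) and Tlr4 by -0.39 (adjusted p = 0.0125), both inside the fold change limits. Tlr3 (0.28, adjusted p = 0.194), Tlr6 (0.25, adjusted p = 0.125) and Tlr7 (-0.14, adjusted p = 0.215) did not pass the test. Median-ratio scaling moved the median of all genes in this comparison from -0.17 to 0.012. It moved the share of called genes that were higher from 31.2% to 51.0%, and with it Tlr1 was called higher (log2 fold change 0.66, adjusted p = 8.40e-04) and Tlr7 changed sign (0.058, not called).

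Surface and endosomal receptors were then set side by side, as counts and medians with no test. For LPS with DMSO, 1 surface gene was called higher and 2 lower of 4 tested, with a median log2 fold change of -0.41, and 1 endosomal gene was called higher and 1 lower of 4 tested, with a median of -0.24. The shares called over all genes tested were 12.8% higher and 19.8% lower, with a median of -0.065. Each class thus held genes that rose and genes that fell. For LPS + Ska with LPS, none of the 4 surface genes was called by limma (2 were higher and 1 lower at an unadjusted p below 0.05, beside 10.7% and 23.3% of all genes tested), with a median of 0.15. One of 4 endosomal genes was called in each direction, beside 2.83% higher and 5.01% lower of all genes tested, with a median of -0.17, beside -0.092 over all genes. For LPS + Ska with DMSO, 1 of 4 surface genes and 2 of 4 endosomal genes were called lower, beside 25.0% of all genes tested, with medians of -0.071 and -0.50, beside -0.17 over all genes.

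Summed over genes, the surface receptors made 289 to 368 TPM in DMSO, 199.6 to 206 TPM in LPS and 188 to 213 TPM in LPS + Ska. The endosomal receptors made 119.9 to 132 TPM, 76.3 to 78.3 TPM and 70.7 to 102 TPM. Both sums were lower in every stimulated sample than in every DMSO sample, and the deposited ranges of LPS and LPS + Ska overlapped in both. Over the recovered values the endosomal sums were 76.8 and 77.8 TPM in LPS and 94.1 and 78.4 TPM in LPS + Ska, without overlap, and the surface sums still overlapped. Surface receptors accounted for 70.7 to 73.5% of the receptor TPM in DMSO, 72.3 to 72.4% in LPS and 67.6 to 72.7% in LPS + Ska, so this share overlapped between DMSO and each stimulated group. In the deposited columns it overlapped between LPS and LPS + Ska too. Over the recovered values it was 72.36 and 72.40% in LPS and 68.7 and 71.3% in LPS + Ska, without overlap. The shares of single genes differed between DMSO and the stimulated groups. Tlr2 made 56.3 to 58.9% of all receptor TPM in DMSO, 47.3 to 48.3% in LPS and 44.1 to 50.3% in LPS + Ska. Tlr13 made 35.3 to 36.9% of the endosomal TPM in DMSO, 11.3 to 12.2% in LPS and 18.7 to 19.6% in LPS + Ska, and Tlr7 made 56.2 to 57.2%, 75.3 to 78.8% and 74.6 to 74.9%.

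**Figure D3:**
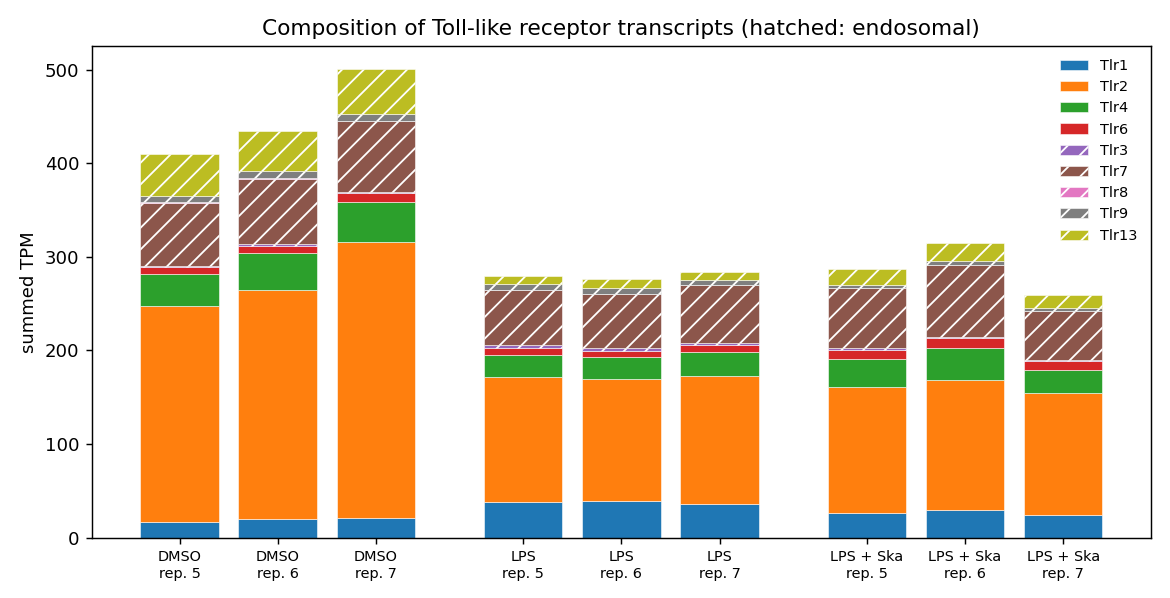
Summed TPM of the receptor genes (y axis, from 0) in each of the 9 deposited columns (x axis), stacked by gene, with endosomal receptors hatched; Tlr5 is at 0. The DMSO bars reach 409 to 500 TPM, the LPS bars 276 to 284 TPM and the LPS + Ska bars 259 to 315 TPM, and Tlr2 is the largest block in every bar.

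Ratios within a sample do not depend on how the sample was scaled. The ratio of Tlr1 to Tlr6, the alternative partners of Tlr2, was 2.31 to 2.64 in DMSO, 4.67 to 6.05 in LPS and 2.60 to 2.98 in LPS + Ska. The LPS samples stood apart from the others. The deposited columns with skatole overlapped DMSO, whereas the recovered values, 2.89 and 2.70, lay just above it. The ratio of Tlr2 to Tlr1 was 12.3 to 13.9 in DMSO, 3.31 to 3.82 in LPS and 4.66 to 5.45 in LPS + Ska, and that of Tlr2 to Tlr6 was 32.0 to 32.5, 17.8 to 20.01 and 13.9 to 14.2. The 3 groups were separate in both, in a different order.

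Among the endosomal receptors, the ratio of Tlr7 to Tlr13 was 1.52 to 1.62 in DMSO, 6.18 to 6.95 in LPS and 3.80 to 4.01 in LPS + Ska. The groups were separate, with LPS + Ska between the others. The ratio of Tlr7 to Tlr9 was 9.20 to 10.9 in DMSO, 8.75 to 12.1 in LPS and 17.4 to 20.6 in LPS + Ska. DMSO and LPS overlapped in this ratio and LPS + Ska lay above both.

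**Figure D4:**
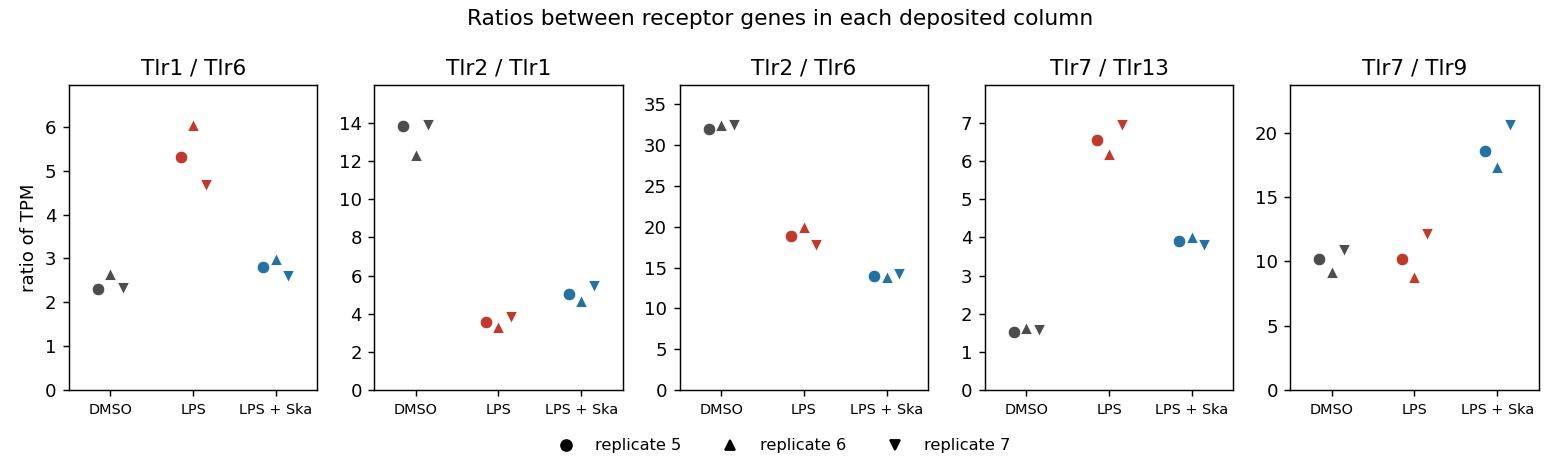
Ratios of TPM between receptor genes (y axis, from 0, own scale for each ratio) in the 9 deposited columns, by group (x axis), with marker shapes for replicates 5, 6 and 7. The ratio of Tlr7 to Tlr9 is at 17.4 to 20.6 in LPS + Ska and at 8.75 to 12.1 in the other groups, whereas the ratio of Tlr1 to Tlr6 is highest in LPS, at 4.67 to 6.05.

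The genes around the receptors were taken from lists of pathway members. Their counts stand beside the shares of all genes tested, 12.8% higher and 19.8% lower for LPS with DMSO and 2.83% higher and 5.01% lower for LPS + Ska with LPS. Of the co-receptors, 5 of 6 were tested (Cd14, Ly96, Cd36, Cd180 and Ly86, without Lbp). For LPS with DMSO, Ly96, which encodes the MD-2 partner of Tlr4, was higher (0.84, adjusted p = 0.00845) and Ly86, which encodes the partner of the receptor-like protein Cd180, was lower (-0.91, adjusted p = 5.27e-05). Skatole added to LPS gave 1 call of 5, the scavenger receptor Cd36, a co-receptor of Tlr2 with Tlr6. Cd36 had 128, 133 and 123 TPM in LPS and 257, 289 and 225 TPM in LPS + Ska, with a log2 fold change of 1.00 (SE 0.173, adjusted p = 0.00809). Its level with skatole was thus higher in every sample, while that of Tlr2 overlapped between the same groups. Ly96 had 35.4, 42.4 and 28.4 TPM in LPS and 60.5, 68.8 and 52.2 TPM in LPS + Ska, without overlap, and at a log2 fold change of 0.76 it missed the threshold (adjusted p = 0.0501). Cd14 (0.54, adjusted p = 0.00129) and Cd180 (-0.45, adjusted p = 0.0117) passed the test but stayed inside the fold change limits. By limma at an unadjusted p below 0.05, 3 of the 5 were higher and 1 was lower, beside 10.7% and 23.3% of all genes tested.

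Of the adaptors, 5 of 6 were tested (without Sarm1). For LPS with DMSO, 1 was called higher, Pik3ap1, which links receptors to the kinase PI3K (0.77, adjusted p = 1.35e-04). Against LPS alone, none was called by limma with skatole (2 were lower and 0 higher at an unadjusted p below 0.05, beside 23.3% and 10.7% of all genes tested), and Myd88, the adaptor shared by most of the receptors, had a log2 fold change of -0.086 (95% confidence interval -0.33 to 0.16). A list of 11 genes held kinases, ubiquitin ligases and Ikbkg, a regulatory subunit of a kinase complex. Of these, Irak1, a kinase recruited by Myd88, was called lower in LPS than in DMSO (-1.12, adjusted p = 3.87e-05). None of the 11 was called for LPS + Ska with LPS. By limma at an unadjusted p below 0.05, 1 was higher and 4 were lower, beside 10.7% and 23.3% of all genes tested. The higher one was Ikbkg (0.49), which is neither a kinase nor a ligase.

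Among the 11 genes of endosomal trafficking and cleavage, Unc93b1 brings the nucleic acid receptors to the endosome. Cathepsins and Lgmn cut them there. The chaperones Hsp90b1 and Cnpy3 act on surface receptors too. For LPS with DMSO, 3 of the 11 were called higher and 6 lower (12.8% and 19.8% over all genes tested), with a median log2 fold change of -0.68 beside -0.065 over all genes. The largest changes were in Slc15a3, an endolysosomal transporter (1.59, adjusted p = 3.21e-04), and Cnpy3 (-1.49, adjusted p = 7.60e-06). With skatole 1 was called against LPS alone, the protease gene Ctsl. It had 184, 163 and 204 TPM in LPS and 320, 292 and 348 TPM in LPS + Ska, without overlap (0.80, SE 0.117, adjusted p = 0.00431). Ctsb (0.36, adjusted p = 0.0158), Ctss (0.33, adjusted p = 0.0242) and Ap3b1 (-0.50, adjusted p = 0.0158) passed the test but stayed inside the fold change limits. By limma at an unadjusted p below 0.05, 3 of the 11 were higher and 2 were lower. The shares over all genes tested were 10.7% and 23.3%. Unc93b1, which carries the endosomal receptors out of the endoplasmic reticulum, had log2 fold changes of -0.89 for LPS with DMSO (adjusted p = 8.51e-06) and -0.14 for LPS + Ska with LPS (adjusted p = 0.142, not called).

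Of the inhibitors of receptor signaling, 9 of 10 were tested (without Socs1). For LPS with DMSO, 2 were called higher and 1 lower. The largest changes were in Tnip1, a partner of the ubiquitin-editing enzyme A20 (0.99, adjusted p = 1.67e-05), and Sigirr, a TIR domain protein that dampens signaling (-1.34, adjusted p = 5.07e-04). With skatole 1 was called lower than in LPS alone, Trafd1, a zinc finger inhibitor of the pathway, with 25.6, 23.1 and 28.0 TPM in LPS and 14.8, 15.2 and 14.4 TPM in LPS + Ska (-0.75, SE 0.115, adjusted p = 0.00535). At an unadjusted p below 0.05, 1 of the 9 was higher and 5 were lower in this comparison, beside 10.7% and 23.3% of all genes tested, with a median of -0.36 beside -0.092 over all genes.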

How the data were processed

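RNA from 9 RAW264.7 samples was sequenced by the authors with a NEBNext Ultra library kit, and expression was deposited as TPM in a table of 55401 Ensembl genes. The submitters' processing notes name fastp 0.20.1, HISAT2 2.2.1, StringTie 2.0 and mm10, and how the columns of LPS and LPS + Ska came to be tied is not given in the sources used here. Columns summed to between 999895 and 1000145 TPM, with 12498 to 13012 genes at 1 TPM or more, and 55141 identifiers matched a symbol.

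One limma 3.58.1 model (R 4.3.3, lmFit followed by eBayes, trend on mean level) covered all groups on the log2(TPM + 1) scale, with the 3 DMSO columns and the 2 recovered values of each other group, for genes whose group means averaged at least 1 TPM. The study states fold change limits of 1.5 and 0.67 for RNA-seq, which were used with a Benjamini-Hochberg adjusted p below 0.05. The model was tested on data simulated for LPS + Ska against LPS over 12812 genes (20 simulations, 200 genes changed by 1.5 on the log2 scale), and it recovered 93.1% of these with 2.81% false calls. These changes were larger than those called for Tlr13 (0.79) and Tlr9 (-0.62) in this comparison. Low genes were not among those changed. The share recovered therefore does not apply to smaller changes or to low genes. All 10 receptor genes were described in every comparison, with Tlr11 and Tlr12 once, and from each pathway list the called gene with the largest change in each direction was named. Ly96, Cd14, Cd180, Ikbkg, Ctsb, Ctss and Ap3b1 for LPS + Ska with LPS, Myd88 and Unc93b1 were named outside this rule, after their values were seen. The receptor genes, lists and tests were chosen with earlier results of these data known.

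Alternatives were the columns as deposited, with and without a replicate block, a pseudocount of 0.1, no filter, a mean of at least 5 TPM, median-ratio scaling, the compared groups alone, no intensity trend, adjusted p alone, and each DMSO column or recovered value left out. Samples with the same number were treated as unpaired: deviations of same-numbered columns correlated at 0.39, 0.15 and 0.13 between LPS and LPS + Ska, whose columns are tied in the same form, and at -0.029 to 0.080 otherwise. Promoter windows came from RefSeq (GRCm38.p6) and coordinates from GENCODE. Plots used matplotlib 3.10.9 (Python 3.11.15).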

Additional observations from a re-analysis of the deposited data

How the results depend on the processing

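Of the 10 calls in receptor genes over the 3 comparisons, 8 were made under every alternative in which the gene was tested, and those of Tlr3 (LPS with DMSO) and Tlr9 (LPS + Ska with LPS) were not. For LPS with DMSO, the count called higher was 1 with a mean of at least 5 TPM, where Tlr3 was not tested, and 1 to 2 with a sample left out, Tlr3 being lost without either LPS recovered value. Between LPS + Ska and LPS, the count called lower was 0 without a filter and 0 with median-ratio scaling, 0 to 1 with a sample left out and 2 (Tlr1 and Tlr9) by adjusted p alone. For LPS + Ska with DMSO, the count called higher was 1 (Tlr1) with median-ratio scaling and 1 by adjusted p alone. The uncalled log2 fold changes that changed sign were those of Tlr2 (-0.015 to 0.030 with a sample left out) and Tlr7 (-0.024 to 0.24) for LPS + Ska with LPS, and of Tlr7 (0.058 with median-ratio scaling) for LPS + Ska with DMSO. The replicate block on the deposited columns changed no count of receptor calls (2 higher and 3 lower, 1 and 1, and 0 and 3) and gave Tlr9 an adjusted p of 0.0130 for LPS + Ska with LPS. Fits on the deposited columns, with or without the block, count the 3 tied columns of a group as independent, so their p-values overstate the evidence. The lowest adjusted p given for Tlr9 and for Tlr13 in that comparison came from these fits. Over all genes, 362 were called higher and 642 lower for LPS + Ska with LPS, against 144 and 165 without LPS recovered value 1, 189 and 189 without LPS recovered value 2, and 183 and 306 without LPS + Ska recovered value 2. Against DMSO, LPS + Ska had 1455 genes called higher, and 2270 with median-ratio scaling. Leaving out a recovered value leaves 1 in its group, which is then assumed to vary like the other groups. The cause of these changes was not tested. Depth is unknown, so what it limits could not be given.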
